A study of Saccharomyces cerevisiae with 8 samples.

Results

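The 8 features described here are the flocculin genes *FLO11* (YIR019C), *FLO1* (YAR050W), *FLO5* (YHR211W), *FLO9* (YAL063C) and *FLO10* (YKR102W), the noncoding RNA *ICR1*, and the adjacent genes *BSC1* (YDL037C) and *PRM7* (YDL039C). They were found by identifier in a deposited table of 6868 features, and all 8 had a value on every array. The set was chosen with the NaCl responses of these same arrays known, so the responses of the 8 are given as a description, with no p-value. Counts of the 8 that a fit over all features called stand only beside the share of all features called. *BSC1* and *PRM7* were already known to have the lowest means of all features tested in *snf1*.

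Flocculins are large, heavily glycosylated proteins of the *Saccharomyces cerevisiae* cell wall. Flo1, Flo5 and Flo9 bind mannose on neighbouring cells and make cells clump, whereas Flo11 is used for adhesion to surfaces, pseudohyphal growth and invasion of agar. *FLO11* is known for an unusually long promoter on which the pathways of protein kinase A, the filamentation MAP kinases and Snf1 converge. *ICR1* is transcribed across that promoter, and its transcription is known to hold *FLO11* down. *FLO1*, *FLO5*, *FLO9* and *FLO10* lie near chromosome ends, and most laboratory strains keep them silent or nearly so. *BSC1* was named for a transcript on which ribosomes bypass a stop codon, and its protein resembles flocculins. *PRM7* was named as a gene of a predicted membrane protein regulated by mating pheromone.

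The 3 strains are of the W303 background. The *snf1* strain lacks *SNF1*, which encodes the kinase of glucose derepression (3 arrays). The *cdc14-3* strain carries a heat-sensitive allele of *CDC14*, which encodes the phosphatase of mitotic exit (2 arrays, numbered 2 and 3), and *cdc14-3 snf1* carries both lesions (3 arrays). All cultures grew in rich YPD medium at 25 °C, were moved to 35 °C, where *cdc14-3* is inactive, and then received 0.7 M NaCl for 30 min at 35 °C. The heat lasted 90 min for replicate 1 of both *snf1* and *cdc14-3 snf1*, while the other 6 arrays had 2 h. Arrays of wild-type cells were not analysed here, which leaves no reference response for any of the 3 strains. The labels number the replicates without saying that cultures were separate, so the spread between arrays may be partly technical.

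Each value is a log2 ratio of salt-treated over unstressed cells of one strain on one array, and 0 is the array's median. The log base and direction are not stated with the values. Base 2 was taken as likely because the study's methods speak of log2 changes, and the direction was read from *GPD1*, an enzyme of glycerol synthesis that salt induces, which lay between 2.81 and 4.11 on the 8 arrays. A ratio of this kind gives no transcript level, so it can neither rank the basal expression of the flocculin genes nor show that *SNF1* RNA is missing from the *snf1* strains. The *SNF1* ratio was 2.41 on *snf1* replicate 1 and between -0.43 and 0.28 on the other 7 arrays. Unstressed cells were collected before NaCl was added, so treated cells had also spent longer in the heat. In bulk samples, fewer cells that express a gene and less RNA per cell cannot be told apart. Flocculin genes share long stretches of repeated sequence, and how the probes of the tiled arrays were combined into 1 value per feature is not stated, so signal from near-identical copies may not be separated. Per array, 6165 to 6776 features had a value, and the SD of the ratios over features was 0.72 at the lowest and 1.10 at the highest. The number of arrays limits the precision.

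*BSC1* and *PRM7* had by far the deepest decreases of the set, in all 3 strains. The log2 ratio of *BSC1* was -3.85, -5.21 and -4.61 on the *snf1* arrays (replicates 1, 2 and 3). It was -3.18 and -3.17 on the *cdc14-3* arrays (replicates 2 and 3), and -3.88, -2.37 and -1.62 on the *cdc14-3 snf1* arrays (replicates 1, 2 and 3). *BSC1* was thus below 0 on every array, and it was the lowest of all features with a value on each *snf1* array and on *cdc14-3 snf1* replicate 1. On the other arrays it ranked 6 and 7 from the lowest in *cdc14-3* and 23 and 47 in *cdc14-3 snf1*. The means (± SD) were -4.56 ± 0.68 over 3 arrays of *snf1*, -3.18 ± 0.0092 over 2 arrays of *cdc14-3* and -2.62 ± 1.15 over 3 arrays of *cdc14-3 snf1*. As linear ratios these are 23.5-fold, 9.04-fold and 6.16-fold decreases, if the base is 2. The *cdc14-3* arrays did not overlap with the *snf1* arrays, whereas the *cdc14-3 snf1* arrays overlapped with both.

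The log2 ratio of *PRM7* was -1.60, -3.29 and -3.22 in *snf1*, -1.998 and -2.70 in *cdc14-3*, and -2.58, -1.52 and -1.44 in *cdc14-3 snf1* (replicates in the order used for *BSC1*, here and below). Its means were -2.70 ± 0.96 (SD, n = 3), -2.35 ± 0.50 (SD, n = 2) and -1.85 ± 0.64 (SD, n = 3), and the arrays of each strain overlapped with those of the others. *PRM7* was also below 0 on every array, and it ranked 2 from the lowest on *snf1* replicates 2 and 3 but 187 on *snf1* replicate 1.

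The ratio of *BSC1* was below that of *PRM7* on all 8 arrays, and the gap between them varied. *BSC1* minus *PRM7* was -2.25, -1.93 and -1.38 in *snf1*, -1.18 and -0.47 in *cdc14-3*, and -1.29, -0.85 and -0.18 in *cdc14-3 snf1*. The widest gaps were thus those of the *snf1* arrays, with a mean of -1.85 ± 0.44 (SD, n = 3) against -0.83 ± 0.51 in *cdc14-3* and -0.77 ± 0.56 in *cdc14-3 snf1* (SD, n = 2 and 3). Both genes lie on the same strand of chromosome IV in the RefSeq gene order for assembly R64, which lists YDL038C as an older name of *PRM7*. How the W303 background differs from this assembly here is not known from the sources used. Whether the 2 values come from separate transcripts in these strains was not tested. The plot of the 2 loci shows that the decrease was not shared to the same depth by the flanking genes. *PUS9*, a tRNA pseudouridine synthase gene next to *BSC1*, fell by limma in all 3 strains, to means of -0.998, -0.54 and -0.65 in *snf1*, *cdc14-3* and *cdc14-3 snf1*. *NAT1*, which encodes a subunit of an N-terminal acetyltransferase and lies next to *PRM7*, had means of -0.26, -0.30 and -0.14 and did not pass the test in any strain.

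**Figure D1:**
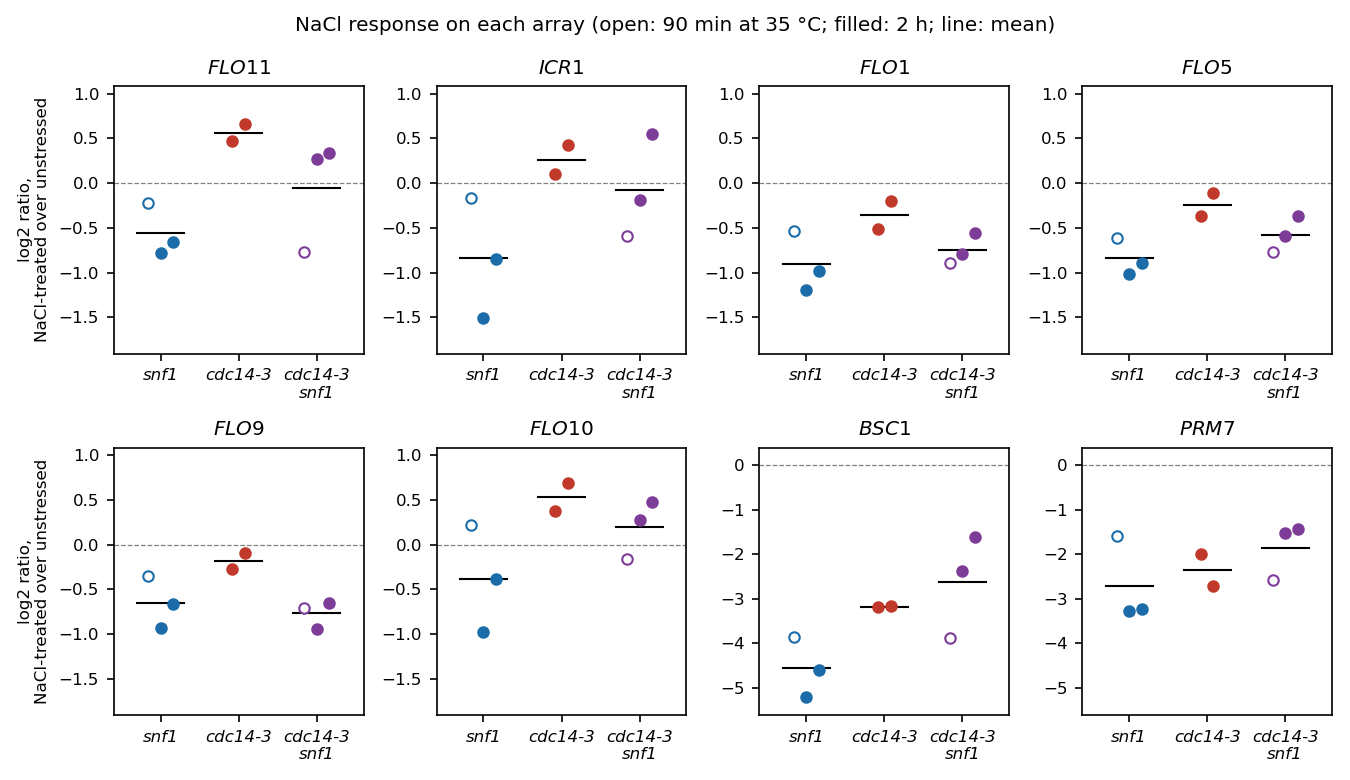
Log2 ratio of NaCl-treated over unstressed cells (vertical axis) for each of the 8 features, by strain (horizontal axis), with 1 point per array, open for 90 min and filled for 2 h at 35 °C, and a line at the strain mean. *BSC1* and *PRM7*, drawn on a longer axis than the others, lie below 0 on every array, and *BSC1* reaches -5.21.

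*FLO11* and *ICR1* sat on opposite sides of 0 in *snf1* and in *cdc14-3*. The log2 ratio of *FLO11* was -0.22, -0.77 and -0.66 on the *snf1* arrays, 0.47 and 0.67 on the *cdc14-3* arrays, and -0.77, 0.27 and 0.34 on the *cdc14-3 snf1* arrays. All *snf1* arrays were below 0 and both *cdc14-3* arrays above it. In *cdc14-3 snf1* the array with 90 min of heat was as low as the lowest *snf1* array, and both arrays with 2 h lay between the *snf1* and the *cdc14-3* values. The means were -0.55 ± 0.29 in *snf1*, 0.57 ± 0.14 in *cdc14-3* and -0.05 ± 0.62 in *cdc14-3 snf1* (SD, n = 3, 2 and 3).

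*ICR1* had log2 ratios of -0.17, -1.50 and -0.84 in *snf1*, 0.10 and 0.42 in *cdc14-3*, and -0.59, -0.18 and 0.55 in *cdc14-3 snf1*. The noncoding RNA was thus also below 0 on each *snf1* array and above 0 on both *cdc14-3* arrays, while the *cdc14-3 snf1* arrays overlapped with both strains. Its means were -0.84 ± 0.67 (SD, n = 3), 0.26 ± 0.23 (SD, n = 2) and -0.07 ± 0.57 (SD, n = 3).

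*FLO11* and *ICR1* thus moved in the same direction on 7 of the 8 arrays, and the exception was *cdc14-3 snf1* replicate 2. The share of all features that match *FLO11* in sign this often was not computed. By correlation over the 8 arrays, a different measure, *ICR1* ranked 260 from *FLO11* (r = 0.878) among 6095 other features, and *FLO11* ranked 160 from *ICR1*. Many other features thus followed either of them more closely. *FLO11* minus *ICR1* was -0.05, 0.73 and 0.18 in *snf1*, 0.36 and 0.24 in *cdc14-3*, and -0.18, 0.45 and -0.20 in *cdc14-3 snf1*. The mean difference was 0.29 ± 0.40 (SD, n = 3), 0.30 ± 0.09 (SD, n = 2) and 0.02 ± 0.37 (SD, n = 3), so the 3 strains overlapped in this measure. *ICR1* lies over the promoter of *FLO11* and not over its coding part, but the bounds of the probes behind each value are not stated. YIR018C-A, the reading frame annotated on the other side of *FLO11*, rose by limma in all 3 strains, with means of 1.34 ± 0.34 in *snf1*, 0.70 ± 0.19 in *cdc14-3* and 0.84 ± 0.40 in *cdc14-3 snf1* (SD, n = 3, 2 and 3).

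**Figure D2:**
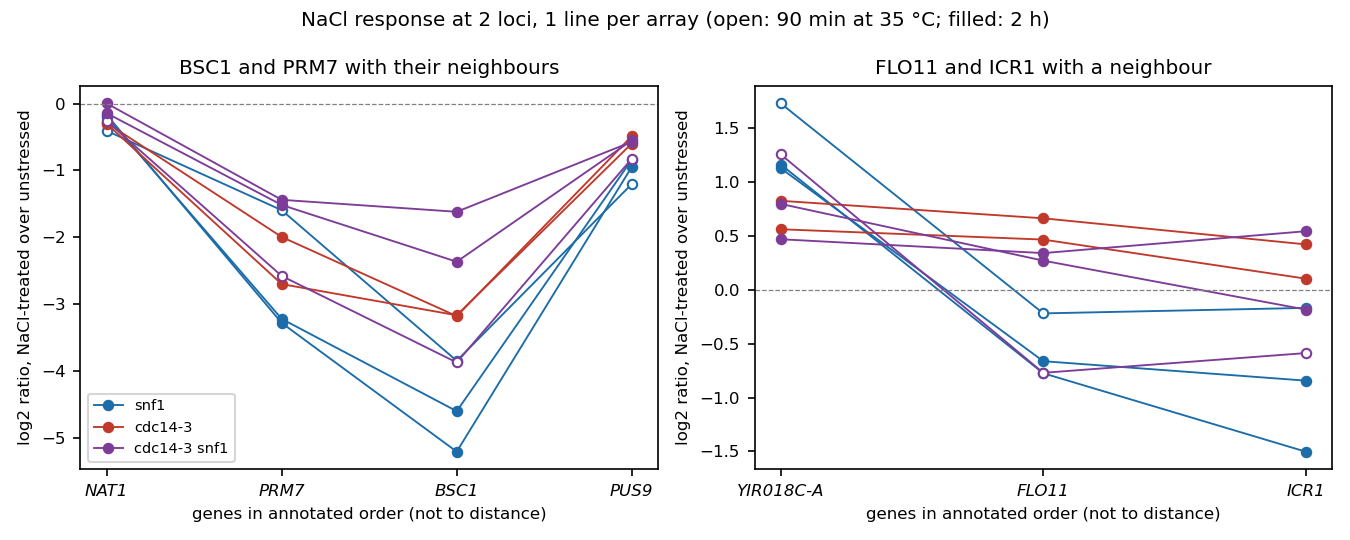
Log2 ratio of NaCl-treated over unstressed cells (vertical axis) for genes in their annotated order (horizontal axis, not to distance), with 1 line per array coloured by strain, open for 90 min and filled for 2 h at 35 °C. Left, *BSC1* and *PRM7* lie below *NAT1* and *PUS9* on all 8 arrays, and right, *FLO11* and *ICR1* both lie below YIR018C-A on 7 of 8 arrays, the exception being *ICR1* on *cdc14-3 snf1* replicate 3.

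The mannose-binding flocculin genes *FLO1*, *FLO5* and *FLO9* were below 0 on every array and close to each other on each one. The log2 ratio of *FLO1* was -0.54, -1.19 and -0.99 in *snf1*, -0.52 and -0.20 in *cdc14-3*, and -0.89, -0.79 and -0.56 in *cdc14-3 snf1*. That of *FLO5* was -0.61, -1.01 and -0.89 in *snf1*, -0.37 and -0.11 in *cdc14-3*, and -0.77, -0.59 and -0.36 in *cdc14-3 snf1*. That of *FLO9* was -0.35, -0.93 and -0.67 in *snf1*, -0.27 and -0.09 in *cdc14-3*, and -0.71, -0.94 and -0.66 in *cdc14-3 snf1*. For all 3 genes the *cdc14-3* arrays lay nearer to 0 than every *snf1* array, by as little as 0.02 for *FLO1*. Only *FLO9* had a lower mean in *cdc14-3 snf1* than in *snf1*.

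The means of *FLO1* were -0.90 ± 0.33 in *snf1*, -0.36 ± 0.22 in *cdc14-3* and -0.74 ± 0.17 in *cdc14-3 snf1* (SD, n = 3, 2 and 3). Those of *FLO5* were -0.84 ± 0.20, -0.24 ± 0.18 and -0.57 ± 0.20, and those of *FLO9* were -0.65 ± 0.29, -0.18 ± 0.13 and -0.77 ± 0.15, with the same numbers of arrays. The spread among the 3 genes on one array ranged from 0.11 to 0.35, which is near the SD between arrays of a strain. A shared response and signal from shared sequence cannot be told apart in these values.

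*FLO10*, whose product can stand in for other flocculins in adhesion when it is made, lay at levels of the ratio nearer to *FLO11* than to the mannose-binding group. Its log2 ratio was 0.22, -0.97 and -0.38 in *snf1*, 0.38 and 0.69 in *cdc14-3*, and -0.16, 0.28 and 0.48 in *cdc14-3 snf1*. The *cdc14-3* arrays lay above all *snf1* arrays, and the *cdc14-3 snf1* arrays overlapped with both. The means were -0.38 ± 0.60 (SD, n = 3), 0.53 ± 0.22 (SD, n = 2) and 0.20 ± 0.32 (SD, n = 3). *FLO10* was above all of *FLO1*, *FLO5* and *FLO9* on 7 of 8 arrays, *FLO11* on 7 and *ICR1* on 6. The exceptions were *snf1* replicate 2 for *FLO10*, *cdc14-3 snf1* replicate 1 for *FLO11*, and *snf1* replicates 2 and 3 for *ICR1*.

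**Figure D3:**
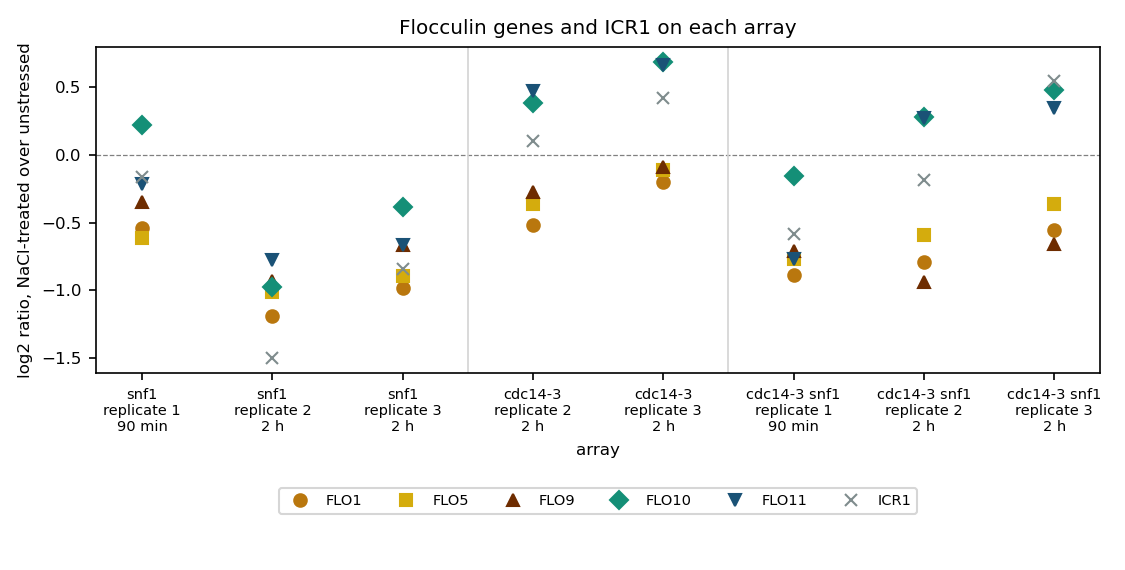
Log2 ratio of NaCl-treated over unstressed cells (vertical axis) of the 5 flocculin genes and *ICR1* on each of the 8 arrays (horizontal axis, grouped by strain, with the time at 35 °C). *FLO1*, *FLO5* and *FLO9* stay within 0.35 of each other on each array, and *FLO10* lies above all of them on 7 of 8 arrays.

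The order of the strain means was the same for *FLO11*, *ICR1*, *FLO1*, *FLO5* and *FLO10*: lowest in *snf1*, then *cdc14-3 snf1*, then *cdc14-3*. For *BSC1* and *PRM7* the highest mean was that of *cdc14-3 snf1*. The *snf1* and *cdc14-3 snf1* arrays, neighbours in that order, overlapped for all 8 features.

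A limma fit over all features, with 1 mean per strain, gives the background against which the 8 can be read. At an adjusted p of 0.05, 51.3% of the 6135 features tested were called for the NaCl response of *snf1*, 40.3% for that of *cdc14-3* and 46.1% for that of *cdc14-3 snf1*. Of the 8, the calls were 6 in *snf1* (all but *FLO11* and *FLO10*), 2 in *cdc14-3* (*BSC1* and *PRM7*) and 5 in *cdc14-3 snf1* (*FLO1*, *FLO5*, *FLO9*, *BSC1* and *PRM7*), all of them decreases. The call of *ICR1* in *snf1* was lost without *snf1* replicate 2, when its mean was -0.51, or without *snf1* replicate 3, when it was -0.84. As the responses chose the set, nothing is read from these counts. The median over the 8 was -0.84, -0.21 and -0.66 in the 3 strains, beside medians over all features tested of -0.06, -0.00497 and -0.03.

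Between strains, the means of all 8 features were higher in *cdc14-3* than in *snf1*. With the 2 h arrays alone, 47.1% of 6096 features were higher in *cdc14-3*. Over all arrays, the difference of the means, *cdc14-3* minus *snf1*, was 1.12 ± 0.34 (SE of the fit) for *FLO11*, 1.10 ± 0.41 for *ICR1* and 0.91 ± 0.34 for *FLO10*. It was 0.55 ± 0.24 for *FLO1*, 0.60 ± 0.21 for *FLO5* and 0.47 ± 0.22 for *FLO9*. For *BSC1* it was 1.38 ± 0.59 and for *PRM7* 0.35 ± 0.53. The size was thus about 1 log2 unit for *FLO11*, *ICR1* and *FLO10* and about 0.55 for the mannose-binding group. Of the 8, *FLO11* alone was called, and limma called 18.9% of all features in this comparison. That call was lost with heat time as a covariate, without the filter on missing values, with a replicate block, and without any 1 of the 6 arrays with 2 h of heat, with differences from 1.01 to 1.22. For 7 of the 8, all but *PRM7*, the values in *cdc14-3* and *snf1* were free of overlap, as they were for 52.2% of all features with values on every array of both. The set was chosen with these values known, so nothing is read from these counts either. The median difference was 0.76 over the 8 and -0.02 over all features tested.

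The double mutant was compared with each single mutant. These comparisons share arrays with each other and with the one above. *cdc14-3 snf1* minus *snf1* was 0.50 ± 0.30 (SE) for *FLO11*, 0.76 ± 0.37 for *ICR1*, 0.58 ± 0.30 for *FLO10*, 1.93 ± 0.53 for *BSC1* and 0.86 ± 0.48 for *PRM7*. For *FLO1*, *FLO5* and *FLO9* it was 0.16 ± 0.21, 0.27 ± 0.19 and -0.12 ± 0.20, each within about 1.5 SE of 0. No feature of the table was called in this comparison (0%), although 1137 had an unadjusted p under 0.05. None of the 8 was free of overlap between the strains, against 19.4% of all features.

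*cdc14-3 snf1* minus *cdc14-3* was -0.62 ± 0.34 (SE) for *FLO11*, -0.34 ± 0.41 for *ICR1* and -0.33 ± 0.34 for *FLO10*. It was -0.39 ± 0.24, -0.34 ± 0.21 and -0.59 ± 0.22 for *FLO1*, *FLO5* and *FLO9*. The flocculin genes and *ICR1* were thus lower in the double mutant on average, whereas *BSC1* and *PRM7* were higher, by 0.55 ± 0.59 and 0.50 ± 0.53. None of the 8 was called, and limma called 0.0489% of all features, with 676 at an unadjusted p under 0.05. *FLO11*, *FLO1* and *FLO9* were free of overlap between the strains, against 35.8% of all features.

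The 2 arrays with 90 min of heat departed from those with 2 h in opposite directions. On *snf1* replicate 1 all 8 features were above the mean of the *snf1* arrays with 2 h, by 0.34 (*FLO5*) to 1.66 (*PRM7*). On *cdc14-3 snf1* replicate 1, 7 of the 8 were below the mean of the arrays of that strain with 2 h, with differences from -0.21 (*FLO1*) to -1.88 (*BSC1*), and *FLO9* was 0.09 above it. Over 6096 features with values on all arrays, 47.6% were higher at 90 min in *snf1*, 50% lower at 90 min in *cdc14-3 snf1*, and 21.8% both. Each strain had 1 array at 90 min, so heat time and the array itself cannot be told apart.

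With the 2 h arrays alone, *BSC1* had a mean of -4.91 ± 0.43 in *snf1*, -3.18 ± 0.0092 in *cdc14-3* and -1.99 ± 0.53 in *cdc14-3 snf1* (SD, n = 2 each). If the base is 2, these are 30.0-fold, 9.04-fold and 3.99-fold decreases. *PRM7* had means of -3.26 ± 0.04, -2.35 ± 0.50 and -1.48 ± 0.05 (SD, n = 2 each). The means of both genes then rose from *snf1* to *cdc14-3* to *cdc14-3 snf1*. The share of all features with this order was not computed, and with n = 2 per strain nothing is read from it. *FLO11* had 2 h means of -0.72 ± 0.08, 0.57 ± 0.14 and 0.31 ± 0.05 (SD, n = 2 each), with the double mutant on the side of *cdc14-3*. *FLO9* differed from this, with 2 h means of -0.80 ± 0.19 in *snf1* and -0.80 ± 0.20 in *cdc14-3 snf1* (SD, n = 2 each).

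In the fit of the 2 h arrays, *cdc14-3* minus *snf1* ranged from 0.62 (*FLO9*) to 1.73 (*BSC1*), and all 8 were called beside 37.4% of all features. *cdc14-3 snf1* minus *snf1* was 1.03 for *FLO11*, 1.35 for *ICR1*, 1.06 for *FLO10*, 2.91 for *BSC1* and 1.77 for *PRM7*, which were called, beside 22.7% of all features. For *FLO1*, *FLO5* and *FLO9* it was 0.41, 0.48 and 0.0019, and these were not called. *cdc14-3 snf1* minus *cdc14-3* had no call among the 8, beside 0.722% of all features, and 765 features had an unadjusted p under 0.05. The set was also chosen with these arrays known, and nothing is read from its counts of calls. At 90 min the single array of *cdc14-3 snf1* was below that of *snf1* for all 8, with differences from -0.03 (*BSC1*) to -0.98 (*PRM7*), whereas at 2 h all 8 differences were above 0. Over the 6096 features, 44.5% were higher in the double mutant at 2 h, 48.1% lower at 90 min, and 21.3% both. No arrays of *cdc14-3* with 90 min were analysed here.

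**Figure D4:**
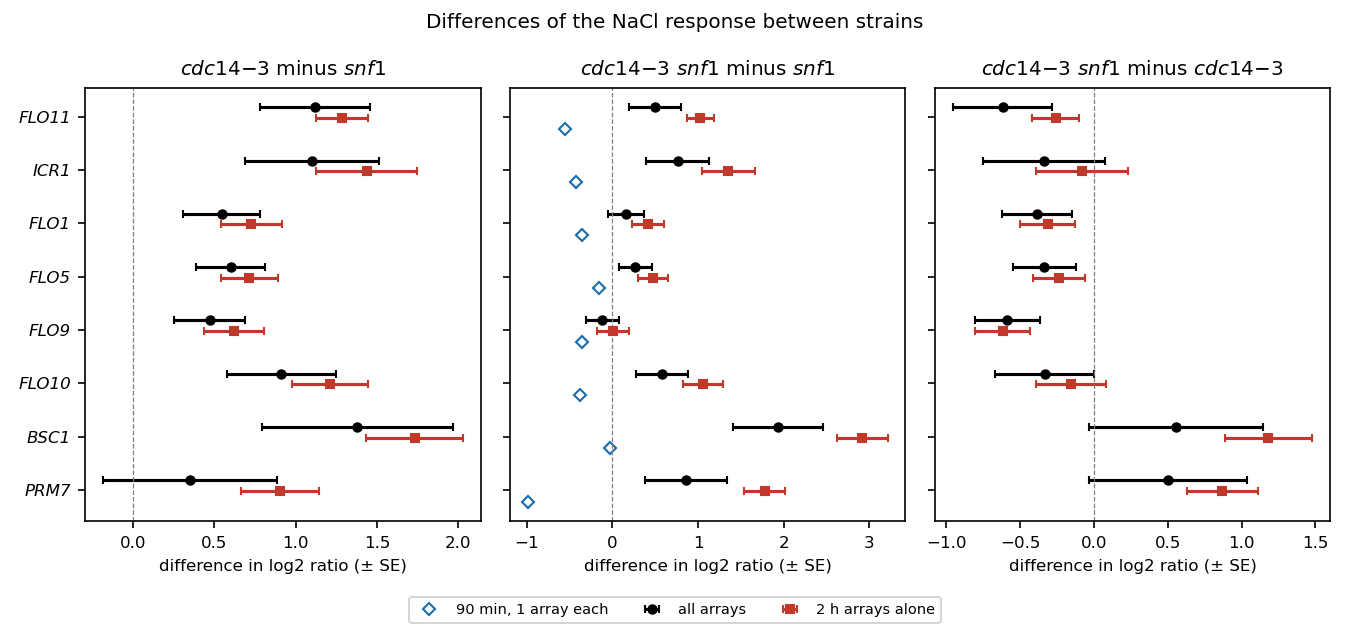
Difference in log2 ratio between strains (horizontal axes, ± SE of the limma fit) for the 8 features (vertical axis), over all arrays (circles), the 2 h arrays alone (squares) and, with no error, the 90 min arrays (diamonds, 1 array per strain). In the middle panel the 90 min differences are all below 0 and the 2 h differences above it, from 0.0019 for *FLO9* to 2.91 for *BSC1*.

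The likeness of 2 features was measured as the root mean square (RMS) difference of their log2 ratios over the 8 arrays, as a description. Of 6095 other features with complete values, the one nearest to *FLO1* was *FLO5*, at an RMS difference of 0.14, and *FLO9* ranked 9 at 0.21. Seen from *FLO9*, *FLO1* ranked 3 and *FLO5* ranked 4. *FLO11* was nearer to *FLO10* (RMS difference 0.30, rank 41) than to *ICR1* (0.36, rank 127), and *FLO1*, *FLO5* and *FLO9* ranked from 1435 to 2392 from it. That order is one of level: by correlation over the same 8 arrays, *FLO5* (r = 0.936, rank 49) was nearer to *FLO11* than *FLO10* (0.887, rank 207) or *ICR1* (0.878, rank 260), and *FLO10* correlated at 0.940 with *FLO5* and 0.931 with *FLO1*. *PRM7* was the feature nearest to *BSC1*, at 1.36, although *BSC1* ranked 104 seen from *PRM7*. By correlation (r = 0.818) *PRM7* ranked 211 from *BSC1*, and *BSC1* ranked 74 from *PRM7*, so the nearness of *PRM7* to *BSC1* was mainly one of level. Outside the set, the features nearest to *FLO11* were *DAN4*, which encodes a cell wall mannoprotein (0.17), *RTT101* (0.20), *ESL2* (0.23), *LAA1* (0.24) and *PEX2* (0.24). For *ICR1* they were *NFT1* (0.21), *PEX2* (0.26), *TEL1* (0.26), *IRA1* (0.27) and *TOF1* (0.28). *NFT1* is the transporter-like gene annotated next to *FLO10* on another chromosome, and its mean in *snf1* was -0.91 ± 0.59 (SD, n = 3), a fall that limma called. For *BSC1* the nearest outside the set were *NSR1*, *MAE1*, *HPT1*, *DBP2* and YFL051C, at RMS differences of 1.68 to 1.94, so no feature matched its depth closely. Their correlations with *BSC1* ran from -0.487 (*MAE1*) to 0.302 (*HPT1*), so this likeness is one of low level. With correlation as the measure, 0 of the 5 features named stayed the same for *FLO11*, *ICR1* or *BSC1*.

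The flanks of the other flocculin genes did not share one direction. *SWH1*, an oxysterol-binding protein gene next to *FLO1*, fell by limma in *snf1* (-0.998) and *cdc14-3 snf1* (-0.51), and its mean in *cdc14-3* was -0.26. YHR210C, next to *FLO5*, rose in *snf1* (0.47) and had means of -0.02 and 0.17 in *cdc14-3* and *cdc14-3 snf1*. *GDH3*, a glutamate dehydrogenase gene next to *FLO9*, fell in *cdc14-3 snf1* (-0.68). *SIR1*, a silencing gene on the other side of *FLO10*, rose in *cdc14-3 snf1* (0.39).

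Genes known to act on flocculin expression were taken from lists, and their calls are those of the same limma fit. The lists were chosen with earlier results of these data known. The adjusted p-values of listed genes, here and below, are thus a description and no independent support. Counts of calls here and below stand beside 51.3%, 40.3% and 46.1% of all features in *snf1*, *cdc14-3* and *cdc14-3 snf1*. List medians stand beside medians over all features tested of -0.06, -0.00497 and -0.03 in the same order. Of 8 activators, 2 rose and 3 fell in *snf1*, 1 rose and 3 fell in *cdc14-3*, and 2 rose and 3 fell in *cdc14-3 snf1*. Of 8 repressors, 2 rose and 5 fell in each of *snf1* and *cdc14-3*, and 3 rose and 5 fell in *cdc14-3 snf1*. The median of the repressors was -0.67, -0.75 and -0.68 in the 3 strains, and that of the activators -0.03, -0.17 and -0.22. *FLO8*, which encodes an activator of *FLO1* and *FLO11* downstream of protein kinase A, fell in *snf1*, to -0.85 ± 0.09 (SD, n = 3), with means of 0.09 ± 0.17 in *cdc14-3* and -0.13 ± 0.15 in *cdc14-3 snf1* (SD, n = 2 and 3). Its difference, *cdc14-3* minus *snf1*, was 0.94 ± 0.19 (SE, limma adjusted p = 0.0132). *TEC1*, the transcription factor of the filamentation pathway, fell in *cdc14-3* and *cdc14-3 snf1*, to -1.47 ± 0.38 and -0.78 ± 0.63, and had a mean of 0.05 ± 0.29 in *snf1* (SD, n = 2, 3 and 3). *MGA1*, a heat shock factor-like activator, rose in *snf1* and *cdc14-3 snf1*, to 1.95 ± 0.98 and 1.34 ± 0.59, with a mean of 0.15 ± 0.11 in *cdc14-3* (SD, n = 3, 3 and 2). *TEC1* and *MGA1* were thus lower in *cdc14-3* than in *snf1*, by limma (adjusted p = 0.0203 and 0.0398), and *FLO8* higher. *PHD1* fell in all 3 strains (-0.95, -1.52 and -1.11), as did *ASH1* (-1.01, -0.95 and -0.64).

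Among the repressors, *NRG1*, a zinc finger repressor of *FLO11* on which Snf1 is known to act, rose in all 3 strains, to 1.79 ± 0.70 in *snf1*, 1.21 ± 0.08 in *cdc14-3* and 1.40 ± 0.38 in *cdc14-3 snf1* (SD, n = 3, 2 and 3). Its paralogue *NRG2* rose in *snf1* (0.66) and *cdc14-3 snf1* (0.73). *SFL1* fell in all 3 (-1.15, -0.73 and -0.67), as did *SOK2* (-0.63, -0.90 and -0.70) and both genes of the general corepressor, *TUP1* (-1.13, -0.88 and -0.91) and *CYC8* (-0.88, -0.77 and -0.81). The median difference of the repressors between *cdc14-3* and *snf1* was 0.02, beside -0.02 over all features tested. Of 5 silencing genes, 2 fell in *snf1*, 1 fell in *cdc14-3*, and 1 rose and 1 fell in *cdc14-3 snf1*. *SIR2*, the deacetylase of silent chromatin, fell in all 3 strains (-0.97, -0.63 and -0.44).

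Of 9 signalling genes, 4 rose and 3 fell in *snf1*, 3 rose and 1 fell in *cdc14-3*, and 4 rose and 1 fell in *cdc14-3 snf1*. *MSB2*, the mucin-like sensor of the filamentation pathway, fell in *snf1* (-1.21 ± 0.10, SD, n = 3) and had means of 0.67 ± 0.06 in *cdc14-3* and -0.29 ± 0.68 in *cdc14-3 snf1* (SD, n = 2 and 3). It was higher in *cdc14-3* than in *snf1* by 1.88 ± 0.34 (SE, limma adjusted p = 0.00845), with both *cdc14-3* arrays above 0 and all *snf1* arrays below it. *STE7*, the MAP kinase kinase of the pathway, was lower in *cdc14-3* than in *snf1*, with a difference of -0.78 ± 0.23 (SE, limma adjusted p = 0.0463).

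**Figure D5:**
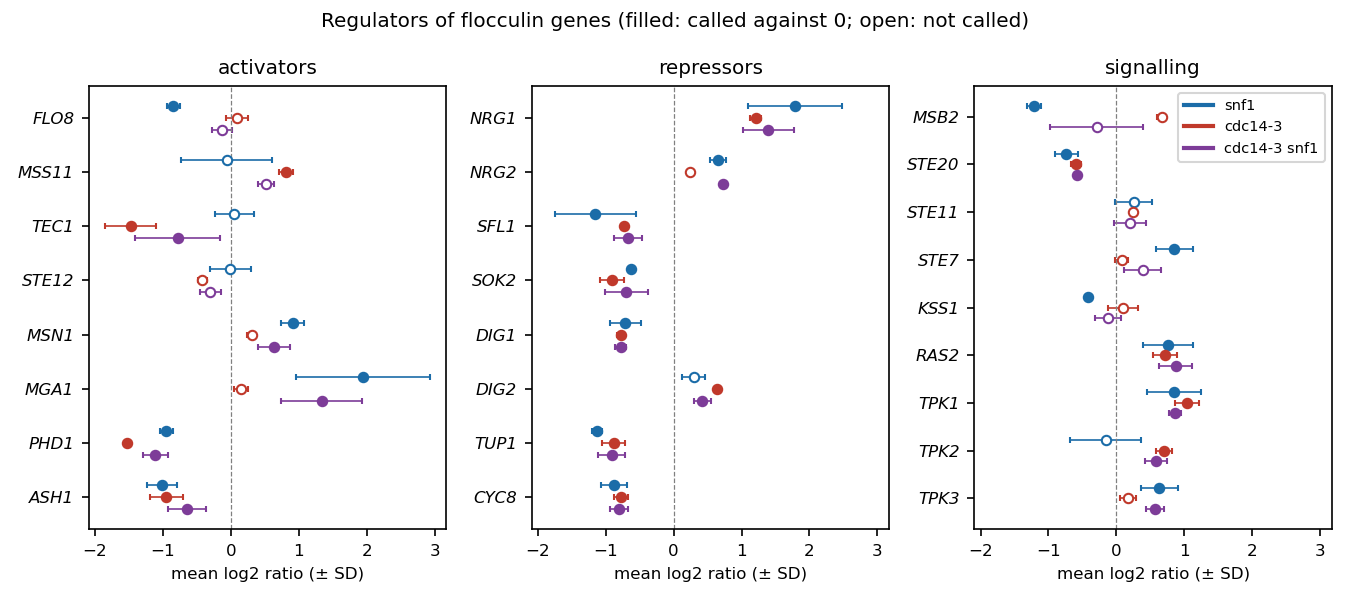
Mean log2 ratio of NaCl-treated over unstressed cells (horizontal axes, ± SD over 2 or 3 arrays) for listed activators, repressors and signalling genes of flocculin expression (vertical axes), by strain, filled where limma called the response against 0 and open where it did not. *FLO8* and *MSB2* lie lowest in *snf1*, at -0.85 and -1.21, and *NRG1* lies above 0 in all 3 strains.

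Other adhesion genes and flocculin-like fragments were counted in the same way. Of 4 adhesins of mating cells, 1 rose in *snf1*, 1 fell in *cdc14-3*, and 1 rose and 1 fell in *cdc14-3 snf1*. *AGA2*, the binding subunit of a-agglutinin, fell in *cdc14-3* (-1.22) and *cdc14-3 snf1* (-1.004), and its difference, *cdc14-3* minus *snf1*, was -0.83 ± 0.23 (SE, limma adjusted p = 0.0388). Of 4 flocculin fragments near chromosome ends, 3 could be tested, and YAL065C, YAR062W and YHR213W fell in *snf1*, to -0.61 ± 0.14, -0.89 ± 0.44 and -0.86 ± 0.89 (SD, n = 3 each). These 3 fragments had means from -0.32 to -0.09 in *cdc14-3*, none of them called, and YAL065C alone fell in *cdc14-3 snf1* (-0.59). Their means in *snf1* and *cdc14-3* resemble those of *FLO1*, *FLO5* and *FLO9*, which were below 0 on every array, as was YAL065C. The untested fragment, YAR061W, did not share this: it was at 0.49 and -0.83 on *snf1* replicates 1 and 3, and at 0.10 on *cdc14-3* replicate 3. YHR213W was at 0.02 on *snf1* replicate 1 and 0.22 on *cdc14-3* replicate 3, where YAR062W was at 0.13. The other values of YHR213W and YAR062W were below 0. The fragments are known to share sequence with these genes, but no sequences were compared here, and how far probes separate them was not tested.

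The mean of *PRM7* had the opposite sign to the median of the other genes named as pheromone-regulated membrane proteins. Of 9 such genes, 6 could be tested: 4 rose and none fell in *snf1*, 3 rose and none fell in *cdc14-3*, and 3 rose and 1 fell in *cdc14-3 snf1*. Their median response was 1.16, 0.67 and 0.77, where the mean of *PRM7* was -2.70, -2.35 and -1.85. *PRM7* was not alone below 0: *PRM5* had means of -0.37, -0.22 and -0.81 and was called in *cdc14-3 snf1*. *PRM9* had a mean of -0.02 in *snf1*. *PRM1*, needed for fusion of the mating cells' membranes, rose in *snf1* and *cdc14-3 snf1*, to 3.04 ± 0.57 and 1.23 ± 0.87, with a mean of 0.55 ± 0.76 in *cdc14-3* (SD, n = 3, 3 and 2). It was lower in *cdc14-3* than in *snf1*, with a difference of -2.49 ± 0.52 (SE, limma adjusted p = 0.0146).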

How the data were processed

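The authors hybridised salt-treated cDNA with unstressed cDNA of the same strain to whole-genome tiled arrays, with the dyes the same way round on all 8. Dye bias thus cancels between strains but not against 0. They deposited 1 normalized log2 ratio per feature and array; the normalization steps, log base, direction, genome build and combination of probes are not given in the sources used here. Of 6868 features, 5984 matched a RefSeq locus tag (assembly R64) and 25 more a symbol; the 6135 that had 2 or more values in each strain were tested. Values were used as deposited in limma 3.58.1 (R 4.3.3), with 1 mean per strain over all 8 arrays, eBayes and Benjamini-Hochberg adjustment at 0.05, in place of the q-values of the study's methods. The fit was tested on simulated data. No array repeated another: the closest pair had a median absolute difference of 0.18.

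The 8 features and the gene lists were chosen with earlier results of these data known. Besides the 8, genes were named if annotated next to one, if on a list and used as an example, or if among the 5 nearest to *FLO11*, *ICR1* or *BSC1*. *GPD1* and *SNF1* were added as checks after the values were seen. Comparisons of sequence were not made, and no coordinates are given. Alternatives were array weights, heat time as a covariate, the 2 h arrays alone, no filter on missing values, one spread for all arrays, a replicate block, eBayes with trend and robust estimation, the 2 strains alone, and leaving out each array.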

Additional observations from a re-analysis of the deposited data

Results flagged for a closer look

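Of the 8 features and the 43 listed genes tested, 4 had the arrays of *cdc14-3* and of *snf1* wholly on opposite sides of 0, as had 11.4% of all features with values on every array of both strains. For *FLO11* the difference, *cdc14-3* minus *snf1*, was 1.12, and for *ICR1* it was 1.10. Limma over all features called the first and not the second, but both were chosen on these values, so the differences are a description. *MSB2* differed by 1.88 (limma adjusted p = 0.00845), and *HDA1*, a histone deacetylase gene, by 0.45, which did not pass (limma adjusted p = 0.136). The lists were also chosen with earlier results of these data known, so the p-values of listed genes are a description too.

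With *MSB2*, 7 of the 43 listed genes tested (16.3%) differed between *cdc14-3* and *snf1* by the limma test of the difference, beside 18.9% of all features. *FLO8* was higher in *cdc14-3*, by 0.94. *TEC1* differed by -1.52, *MGA1* by -1.80, *STE7* by -0.78, *AGA2* by -0.83 and *PRM1* by -2.49, each lower in *cdc14-3*. The *cdc14-3* mean rests on 2 arrays with 2 h of heat and the *snf1* mean on 3 arrays, 1 of them with 90 min. Over 16 alternatives the call was kept in 14 for *FLO8*, 14 for *TEC1*, 10 for *MGA1*, 14 for *MSB2*, 7 for *STE7*, 9 for *AGA2* and 15 for *PRM1*, and no value changed sign.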

How the results depend on the processing

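Over 744 values of the 8 features under the alternatives, 673 kept their direction and side of the threshold, 48 newly passed, 11 no longer passed and 12 changed sign. The 11 are *ICR1* in *snf1* and *FLO11* in *cdc14-3* minus *snf1*, given above. The 12 were values that passed the test neither before nor after. In *cdc14-3 snf1*, *FLO11* (-0.05) became 0.21 with array weights, 0.044 with heat time as a covariate and 0.31 at 2 h, and lay from -0.25 to 0.31 with 1 array left out, above 0 without replicate 1 of that strain. There *ICR1* (-0.07) became 0.28 with array weights and 0.18 at 2 h, and lay from -0.38 to 0.18 with 1 array left out, above 0 also without replicate 1. In *cdc14-3 snf1* minus *snf1*, *FLO9* (-0.12) became 0.085 with array weights and 0.0019 at 2 h, and lay from -0.26 to 0.032 with 1 array left out, above 0 without *snf1* replicate 1. With array weights *ICR1* in *cdc14-3 snf1* minus *cdc14-3* (-0.34) became 0.016. *PRM7* in *cdc14-3* minus *snf1* (0.35) lay from -0.0011, without *cdc14-3* replicate 2, to 0.90. Array weights gave *snf1* replicate 1 a weight of 0.214 and *cdc14-3 snf1* replicate 3 a weight of 3.20. Calls among the 8 then became 5 for the response of *cdc14-3* (2 with equal weights), 6 for *cdc14-3 snf1* minus *snf1* (0 before) and 7 for *cdc14-3* minus *snf1* (1 before). With the 2 h arrays alone they were 4, 5 and 8. For *cdc14-3* minus *snf1* they were 0 with heat time as a covariate, 0 without the filter on missing values and 0 with a replicate block.

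Calls among all features for *cdc14-3 snf1* minus *cdc14-3* (3) became 272 with array weights, 13 with heat time as a covariate, 44 at 2 h, 0 without the filter, 51 with one spread and 25 with the 2 strains alone. For *cdc14-3 snf1* minus *snf1* (0) they became 1657 with array weights, 110 with the covariate, 1382 at 2 h, 10 with a replicate block and 11 with trend and robust estimation. For *cdc14-3* minus *snf1* (1161) they became 2548 with array weights and 2278 at 2 h. Leaving out 1 array gave 919 to 2919 for the response of *cdc14-3*, 0 to 75, 0 to 731 and 0 to 1911 for these 3 differences, and 2 to 3, 0 to 2 and 0 to 6 among the 8 for the response of *cdc14-3*, *cdc14-3 snf1* minus *snf1* and *cdc14-3* minus *snf1*. Where *cdc14-3* was left with 1 array, that array was assumed to vary like the other strains.

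The replicate numbers were not used to pair the samples in the main fit, and whether same-numbered arrays belong together is not stated. Deviations of same-numbered arrays of *snf1* and *cdc14-3 snf1* correlated at 0.159, 0.0415 and 0.205 over 6096 features. Those of differently numbered arrays of these strains correlated between -0.231 and 0.103. Same-numbered arrays gave 0.264 and 0.0942 for *cdc14-3 snf1* with *cdc14-3*, and 0.0239 and -0.212 for *cdc14-3* with *snf1*. These values do not settle whether the numbers mark pairs. With the replicate block the features called were 3253, 2592 and 2928 for the responses of *snf1*, *cdc14-3* and *cdc14-3 snf1*, 2 for *cdc14-3 snf1* minus *cdc14-3*, and 887 for *cdc14-3* minus *snf1*.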

Other observations

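*PWR1*, the noncoding RNA transcribed against *ICR1* in the *FLO11* promoter, had values on 4 arrays only and was not tested. Its log2 ratio was -0.53 on *cdc14-3* replicate 3, and on *cdc14-3 snf1* replicates 1, 2 and 3 it was 0.41, 1.31 and 1.05. On the same *cdc14-3 snf1* arrays *ICR1* was at -0.59, -0.18 and 0.55.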
